A study of Mus musculus with 6 samples.

Results

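The respiratory chain of mitochondria is built from subunits encoded in the nucleus and a smaller set encoded in mitochondrial DNA. The nuclear-encoded subunits were taken here from the gene symbols: protein-coding genes named Nduf with a letter a, b, c, s or v and a digit (complex I), Sdha to Sdhd (complex II), Uqcr (complex III), Cox4 to Cox8 with a letter (complex IV) and Atp5 (complex V). Of the 30315 genes listed, 80 chosen in this way are described, of which 36 belonged to complex I, 4 to complex II, 8 to complex III, 15 to complex IV and 17 to complex V. The symbols also took in Atp5s and Atp5sl, which are related to coupling factor B and are not structural subunits, and Cox7a2l, a supercomplex factor related to subunit 7a. Ndufa4 is counted with complex I by its symbol, although its protein is now placed in complex IV.

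Complex I takes electrons from NADH and complex II takes them from succinate, and both hand them to ubiquinone. Complex III passes them on to cytochrome c, complex IV gives them to oxygen, and the proton gradient built on the way drives ATP synthesis by complex V. Renal tubules rely on this oxidative metabolism for the transport of solutes, and loss of oxygen followed by its return is a classical stress on the chain.

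RNA-Seq was performed on primary renal tubular epithelial cells (TECs) of C57BL/6 mice, grown in culture. All cells went through hypoxia/reoxygenation (H/R), a culture model of ischemia reperfusion injury, with 6 h at 1.0% oxygen in medium without glucose and then 18 h of reoxygenation in complete medium. The siRNA was transfected 12 h before hypoxia and was siSox9, against the transcription factor Sox9, in 3 libraries and siNC, the control siRNA, in 3 libraries. No cells without H/R belong to this comparison, so the effect of H/R itself on the chain was not analysed here, and the sources do not say whether replicates were separate cultures or animals, so p-values measure the spread between these libraries.

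Levels are given as FPKM, in which reads are scaled to the length of the exons and to the depth of the library. About 23893197 to 25725742 reads per library stood behind the values, and 3 reads on a gene of 1 kilobase corresponded to 0.117 to 0.126 FPKM. The columns taken as siSox9 do not name Sox9 and are those of the only siRNA besides siNC. Sox9 reached 8.93, 8.61 and 9.07 FPKM in them and 25.7, 26.5 and 25.6 FPKM with siNC, so 34.2% was left and the groups did not overlap (log2 fold change -1.45, SE 0.034, adjusted p = 7.03e-06, limma). All 6 epithelial markers were present, with Krt8 at a mean of 2106 FPKM and Cdh16 at 115 FPKM, and 1 of the 6 was higher with siSox9. The defining markers of proximal tubule were nearly absent in these cultured cells, with Slc34a1 at 0.00288 FPKM and Hnf4a at 0.0125 FPKM, while Lrp2 was present at 2.27 FPKM. Summed macrophage and leukocyte markers ranged from 103 to 114 FPKM with siSox9 and from 92.2 to 98.7 FPKM with siNC, and 1 of these 5 genes was higher with siSox9. Fibroblast markers summed to 6.24 to 7.76 FPKM against 7.72 to 8.79 FPKM, and endothelial markers to 2.76 to 2.99 FPKM against 3.15 to 4.01 FPKM, with none of either list past the threshold. Distal tubule and collecting duct markers (4.41 to 4.86 against 4.39 to 5.02 FPKM) and muscle markers (0.993 to 1.14 against 0.936 to 1.28 FPKM, with Ckm at 0) overlapped between the groups. The part of other cells in the results was not tested. For the subunits, siNC replicate 1 stood apart from the other controls, so the counts are also given without it.

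Knockdown of Sox9 left most subunits of the chain close to their control level. Of the 80 genes, 75 reached a mean of 1 FPKM and were tested, and 6 passed the threshold of an adjusted p under 0.05 in limma, with 3 higher (Cox8a, Cox4i1 and Uqcrc1) and 3 lower (Uqcrq, Ndufv2 and Atp5g2). The count was 6 of the 75 subunits tested, whereas 30.4% of all 12009 genes tested passed (12.8% higher and 17.6% lower). For 15 of the 75 subunits no siSox9 library fell within the range of siNC or the reverse, against 46.3% of all genes tested. An unadjusted p under 0.05 in limma was seen in 13 of the 75 subunits and in 5051 of all 12009 genes tested. The median log2 fold change on the log2(FPKM + 1) scale was 0.012 over the subunits and -0.014 over all genes, and the median size of the change regardless of sign was 0.057 against 0.110. Because bulk RNA was measured, fewer cells of a type and less RNA per cell cannot be told apart.

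The errors were of similar size, with a median standard error of 0.057 for the subunits and 0.052 for all genes. The 95% interval of the change lay within 1.2-fold in either direction for 57 of the 75 subunits and within 1.5-fold for all 75. Among the 69 subunits that did not pass, the change was under 0.1 on the log2 scale in 52, and the extremes were -0.24 (Ndufa5) and 0.18 (Ndufa3). Subunits are also abundant genes, with a median of 32.1 FPKM against 7.41 FPKM for all genes tested. Among the 7495 genes whose mean reached 5 FPKM, tested on their own, 36.1% passed.

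**Figure D1:**
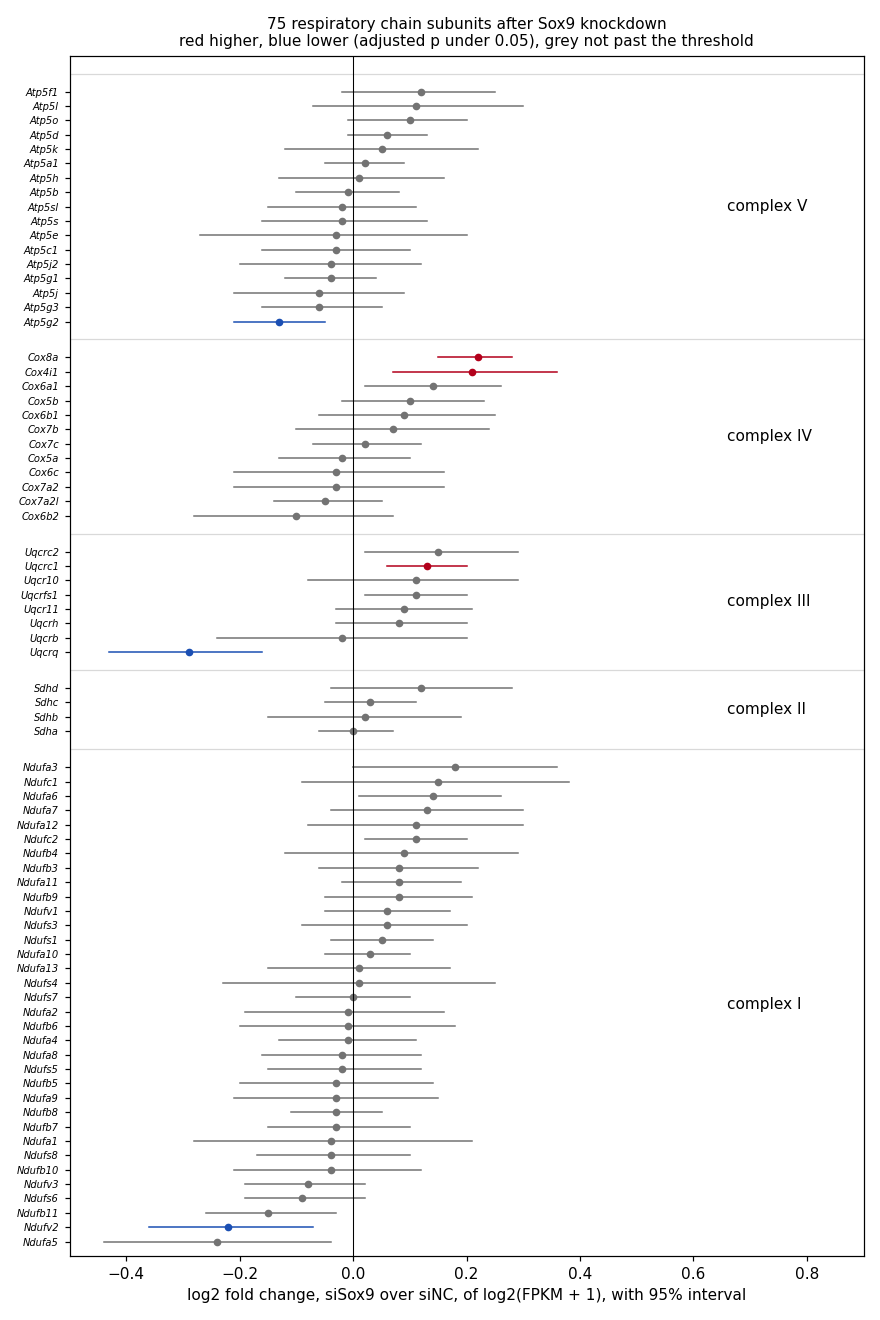
Log2 fold change (siSox9 over siNC, of log2(FPKM + 1), horizontal axis) with its 95% interval for the 75 subunits tested, grouped by complex and sorted by change; red subunits were higher, blue ones lower, and grey ones did not pass the threshold. Most intervals cross 0, and the changes lie between -0.29 (Uqcrq) and 0.22 (Cox8a).

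A single control library stood apart in this gene group. Counted over the 75 subunits tested, siNC replicate 1 was the lowest of the controls in 60 (80.0%), while over all genes tested it was the lowest in 33.8%. Its value minus the mean of the other siNC libraries had a median of -0.145 on the log2 scale for the subunits, with 68 of 75 below 0, and of 0.010 for all genes tested. The deviation was seen in each complex, from -0.098 in complex II to -0.152 in complex IV. For 442 other genes with exon length and level in the middle range of the subunits it was -0.037. Between siNC replicate 1 and the other controls, counts of all genes differed more (mean chi-square per gene 6.57 and 6.87) than between siNC replicates 2 and 3 (2.66).

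Without siNC replicate 1, 3 subunits were higher and 8 lower, and the median log2 fold change was -0.025. All 6 calls remained, and Ndufa5, Ndufb11, Ndufv3, Cox6c and Atp5j2 joined those that were lower. The count of lower subunits thus went from 3 to 8 when this library was left out, and the higher ones were the same 3 genes. Over all genes tested, 1565 were higher and 2089 lower without this library, against 1532 and 2118. This library was singled out because it was low for the subunits. Leaving it out therefore had to raise their control means and shift their fold changes down. Without siNC replicate 2, 4 were higher and 1 lower, with a median of 0.046. Without siNC replicate 3, 2 were higher and 1 lower, with a median of 0.029.

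**Figure D2:**
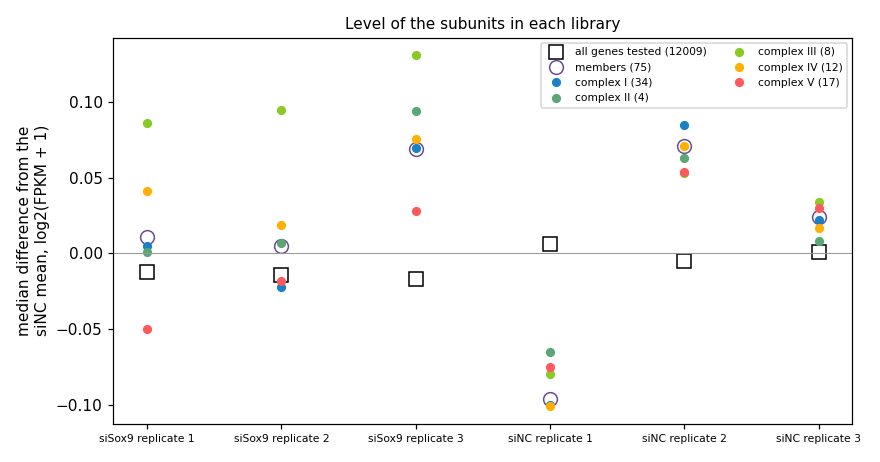
Median difference from the siNC mean (log2(FPKM + 1), vertical axis) in each of the 6 libraries, for all genes tested (black squares), the 75 subunits (open circles, "members") and each complex (filled circles). All genes stay near 0 in every library, while the subunits lie at -0.096 in siNC replicate 1 and at 0.071 in siNC replicate 2. The siSox9 libraries are less far apart, at 0.011, 0.005 and 0.069 in replicates 1, 2 and 3.

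Complex I, the largest complex of the chain, had 1 of 34 subunits past the threshold. Ndufv2, an iron-sulfur subunit of the NADH-oxidizing N module (ENSMUSG00000024099, chromosome 17, 66078795 to 66101559, - strand, GRCm38), was the lower one. It was measured at 22.3, 24.1 and 25.1 FPKM with siSox9 and at 25.8, 29.9 and 28.1 FPKM with siNC, so the groups were separate but close to each other at 25.1 and 25.8 FPKM. It fell by 0.22 on the log2 scale (SE 0.062, adjusted p = 0.0354, limma), and lost the call without siNC replicate 2 (adjusted p = 0.0936), without siNC replicate 3 (adjusted p = 0.0947), without siSox9 replicate 1 (adjusted p = 0.104) and without siSox9 replicate 2 (adjusted p = 0.0846). In those fits the log2 fold change of Ndufv2 was -0.23 to -0.17. The call was also lost without the filter on the mean level (adjusted p = 0.104) and with the libraries centred on their medians (adjusted p = 0.0600).

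Another 5 nuclear core subunits of complex I did not pass. In the N module, Ndufv1, which binds FMN and NADH, stood at 25.4 ± 0.479 FPKM with siSox9 and 24.4 ± 1.49 FPKM with siNC (SD, n = 3 each), and Ndufs1 at 9.37 ± 0.232 and 9.03 ± 0.316 FPKM. In the Q module, Ndufs3 was at 23.6 ± 2.13 and 22.6 ± 0.554 FPKM, Ndufs8 at 37.0 ± 0.612 and 38.0 ± 3.06 FPKM, and Ndufs7, which holds the last iron-sulfur cluster, at 19.1 ± 1.00 and 19.1 ± 0.284 FPKM. Their log2 fold changes ran from -0.04 to 0.06.

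Of the 28 other complex I subunits tested, none passed in limma. An unadjusted p under 0.05 was seen in 4 of them, against 5051 of all 12009 genes tested. The 4 subunits were Ndufb11 (log2 fold change -0.15, adjusted p = 0.0559), Ndufa5 (-0.24, adjusted p = 0.0739), Ndufc2 (0.11, adjusted p = 0.0770) and Ndufa6 (0.14, adjusted p = 0.0942), singled out after their values were seen. Over the 34 complex I subunits tested the median log2 fold change was -0.005, with 16 above 0 and 18 below.

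Complex II showed no change that passed the test. Sdha, the flavoprotein that oxidizes succinate, varied little, at 45.5, 46.3 and 46.5 FPKM with siSox9 and 45.9, 46.3 and 45.8 FPKM with siNC. Its interval ran from -0.06 to 0.07 on the log2 scale. The iron-sulfur subunit Sdhb stood at 30.9 ± 1.85 and 30.5 ± 2.93 FPKM, and the membrane anchors Sdhc and Sdhd at 28.0 ± 0.720 and 27.4 ± 0.542 FPKM and at 86.6 ± 5.82 and 79.6 ± 6.21 FPKM (SD, n = 3 each). None of the 4 passed in limma, and none had an unadjusted p under 0.05.

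Complex III held a fall beside several small positive differences. Uqcrq, a small accessory subunit that binds near cytochrome b (ENSMUSG00000044894, chromosome 11, 53427922 to 53430831, - strand), was measured at 42.2, 42.3 and 46.3 FPKM with siSox9 and at 49.7, 56.8 and 54.7 FPKM with siNC. All siSox9 libraries were below all siNC libraries. It fell by 0.29 on the log2 scale (SE 0.059, 95% interval -0.43 to -0.16, adjusted p = 0.00961, limma), to 0.812 of the control mean.

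Uqcrc1, core protein 1 (ENSMUSG00000025651, chromosome 9, 108936633 to 108949623, + strand), was at 54.2, 54.8 and 54.8 FPKM with siSox9 and at 48.2, 51.3 and 50.1 FPKM with siNC. The siSox9 libraries were nearly equal and all above siNC. It rose by a log2 fold change of 0.13 (SE 0.032, adjusted p = 0.0205, limma), and the call was lost without siNC replicate 3 (adjusted p = 0.0592) or without any of the 3 siSox9 libraries (adjusted p = 0.0559 to 0.0767). In those fits the log2 fold change of Uqcrc1 was 0.13 to 0.14. Core protein 2, Uqcrc2, had a similar difference of 0.15 with groups that did not overlap (58.5, 59.6 and 67.2 against 53.2, 56.0 and 57.0 FPKM) but did not pass (adjusted p = 0.0831). Uqcrfs1, the Rieske iron-sulfur protein, also kept its groups apart (74.5, 74.9 and 77.3 against 66.8, 73.0 and 69.5 FPKM) without passing (log2 fold change 0.11, adjusted p = 0.0635). Across the 8 subunits the median was 0.10, the highest of the 5 complexes. Of the 8, 2 passed and 4 had groups that did not overlap, against 30.4% and 46.3% of all genes tested.

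Complex IV held the other subunits that were higher. Cox8a, the ubiquitous form of subunit 8 (ENSMUSG00000035885, chromosome 19, 7215158 to 7217616, - strand), was at 250, 245 and 253 FPKM with siSox9 and at 217, 212 and 215 FPKM with siNC. Both groups were tight and clearly separate. The log2 fold change was 0.22 (SE 0.028, 95% interval 0.15 to 0.28, adjusted p = 0.00172, limma).

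Cox4i1, the ubiquitous form of subunit 4 and an early piece of complex IV assembly (ENSMUSG00000031818, chromosome 8, 120668222 to 120674207, + strand), was at 63.0, 64.1 and 69.6 FPKM with siSox9 and at 51.9, 58.0 and 59.5 FPKM with siNC. The groups were separate, with siNC replicate 1 well below the other control libraries. It rose by a log2 fold change of 0.21 (SE 0.060, adjusted p = 0.0344, limma). The call was lost without siNC replicate 2 (adjusted p = 0.0590), without siSox9 replicate 1 (adjusted p = 0.0535), without siSox9 replicate 2 (adjusted p = 0.0744), without siSox9 replicate 3 (adjusted p = 0.0959) and without the filter (adjusted p = 0.104). In those fits the log2 fold change of Cox4i1 was 0.17 to 0.24. Exons of Emc8 on the opposite strand cover 9.94% of its exons, and Emc8 stood at 3.67 ± 0.0745 against 3.94 ± 0.264 FPKM (SD, n = 3 each, adjusted p = 0.285).

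The most abundant subunit of the complex, Cox6a1, was at 266, 253 and 263 FPKM with siSox9 and at 220, 249 and 242 FPKM with siNC, separate groups that did not pass (log2 fold change 0.14, adjusted p = 0.0740). Cox6b1 (120 ± 1.22 and 113 ± 11.0 FPKM) and Cox7a2 (43.2 ± 2.70 and 44.1 ± 4.61 FPKM) overlapped between the groups, as did Ndufa4 (73.1 ± 2.39 and 73.6 ± 4.74 FPKM). Over the 12 complex IV genes tested the median was 0.046, and 2 were higher and none lower in limma. The 3 genes with an unadjusted p under 0.05, seen in 5051 of all 12009 genes tested, were Cox8a, Cox4i1 and Cox6a1.

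Complex V, the ATP synthase, had 1 gene of 17 past the threshold, in a small membrane subunit, and a median log2 fold change of -0.018. The subunits of the catalytic F1 head were steady, with Atp5a1 (alpha) at 204 ± 3.59 and 201 ± 3.48 FPKM, Atp5b (beta, the catalytic subunit) at 266 ± 7.67 and 268 ± 10.3 FPKM, and Atp5c1 (gamma) at 73.0 ± 4.31 and 74.7 ± 4.08 FPKM (siSox9 and siNC, SD, n = 3 each). None of the 5 F1 genes passed in limma or had an unadjusted p under 0.05. The same held for the 4 genes of the peripheral stalk and the 3 genes of subunits e, f and g in the membrane part. Atp5s and Atp5sl, the related genes that are not subunits, both had a log2 fold change of -0.02.

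The ring that turns as protons pass is made of subunit c, which mice encode in 3 genes with the same mature protein, Atp5g1, Atp5g2 and Atp5g3. Atp5g2 (ENSMUSG00000062683, chromosome 15, 102662864 to 102672352, - strand) was the lower one, at 37.7, 38.2 and 36.7 FPKM with siSox9 and 40.1, 42.8 and 40.6 FPKM with siNC. The groups did not overlap, and it fell by 0.13 on the log2 scale (SE 0.035, adjusted p = 0.0296, limma). The call was lost without siNC replicate 2 (adjusted p = 0.0768), without siNC replicate 3 (adjusted p = 0.0641) and without any of the siSox9 libraries (adjusted p = 0.0645 to 0.0832). In those fits the log2 fold change of Atp5g2 was -0.14 to -0.10. The call was also lost without the filter (adjusted p = 0.0583), with TPM, which scales each library to the same sum (adjusted p = 0.183), with median centring (adjusted p = 0.0652) and with a correction for exon length and GC content, where the log2 fold change was -0.07 (adjusted p = 0.150). Of its 50-base stretches, 38.3% also occur in Gm10175, Gm10231 or Mir688, so its value is uncertain to that extent, and Gm10175 itself stood at 1.61 ± 0.120 and 1.62 ± 0.120 FPKM. Atp5g1 (12.6 ± 0.430 and 13.0 ± 0.164 FPKM) and Atp5g3 (54.2 ± 0.235 and 56.6 ± 3.50 FPKM) did not pass. The change of the c ring genes between siRNAs was small beside their unequal use, since Atp5g3 gave 52.0% ± 0.454 of their summed FPKM with siSox9 and 51.1% ± 0.963 with siNC.

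**Figure D3:**
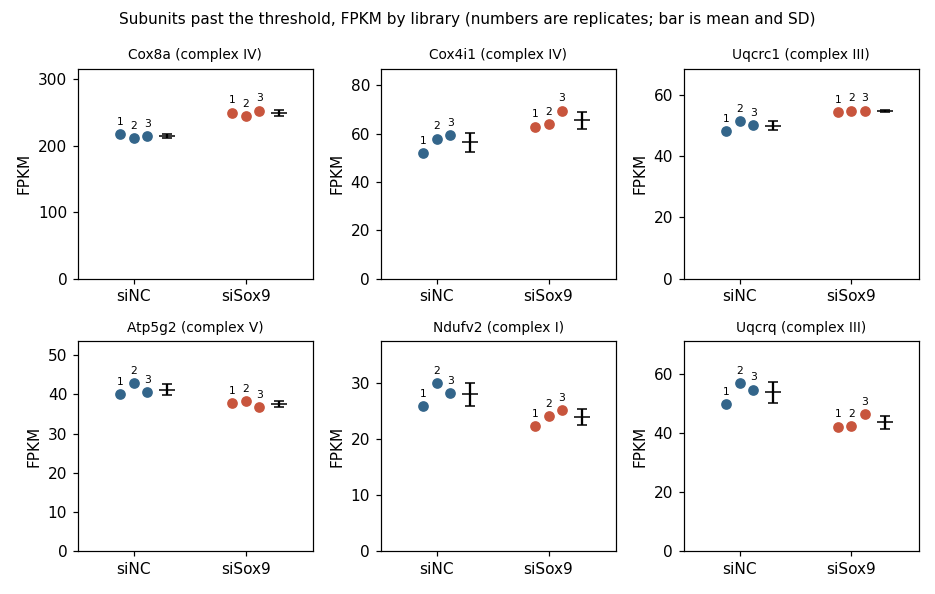
FPKM (vertical axis, from 0) of the 6 subunits past the threshold in each siNC (blue) and siSox9 (red) library, with replicate numbers above the points and the mean and SD (n = 3) as black bars. In each panel the groups do not overlap, and the gap in FPKM is widest for Cox8a (245 to 253 against 212 to 217 FPKM).

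Several complex IV subunits exist in tissue forms, and these TECs used the ubiquitous ones. Cox6a2 and Cox7a1, the heart and muscle forms, had means of 0.0502 and 0.519 FPKM, and Cox6b2, the testis form, 1.24 FPKM. Cox8b, the muscle form of subunit 8, was not analysed here. Ndufa4l2, a hypoxia-induced relative of Ndufa4, was at 0.0311 FPKM, with 0 to 2 reads per library 18 h after hypoxia. Cox4i2, the form of subunit 4 associated with hypoxia and lung, was at 0.641, 0.550 and 0.637 FPKM with siSox9 and 1.18, 0.736 and 0.970 FPKM with siNC.

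As a share of both subunit 4 forms, Cox4i2 was 0.922% ± 0.0799 with siSox9 and 1.69% ± 0.487 with siNC (SD, n = 3 each), with no overlap. It rested on 13, 11 and 12 reads against 23, 14 and 19, which is too few to carry a firm statement. The exact two-sided permutation p was 0.1, the smallest that 3 libraries against 3 can give, and 0.4 after Benjamini-Hochberg adjustment over the 8 isoform shares examined. The share of Atp5g2 in the subunit c genes, 36.0% ± 0.578 against 37.2% ± 0.589, gave the same exact values. The other 6 shares had exact p-values from 0.3 to 1.

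Levels of the 80 genes spanned 0.0311 FPKM (Ndufa4l2) to 267 FPKM (Atp5b), with a median of 30.5 FPKM. The 4 genes with means over 200 FPKM were Atp5b, Cox6a1, Cox8a and Atp5a1. Ndufb2, a constitutive complex I subunit, stood at only 0.401, 0.469 and 0.297 FPKM with siSox9 and 0.458, 0.596 and 0.608 FPKM with siNC. Atp5l, subunit g of the ATP synthase, was similarly low at a mean of 1.73 FPKM. The exons annotated for these genes add up to 5628 and 6443 bases, against a median of 1675 bases for the subunits tested, and a long annotated exon length lowers an FPKM value for the same reads. How much of their low level this makes was not tested.

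**Figure D4:**
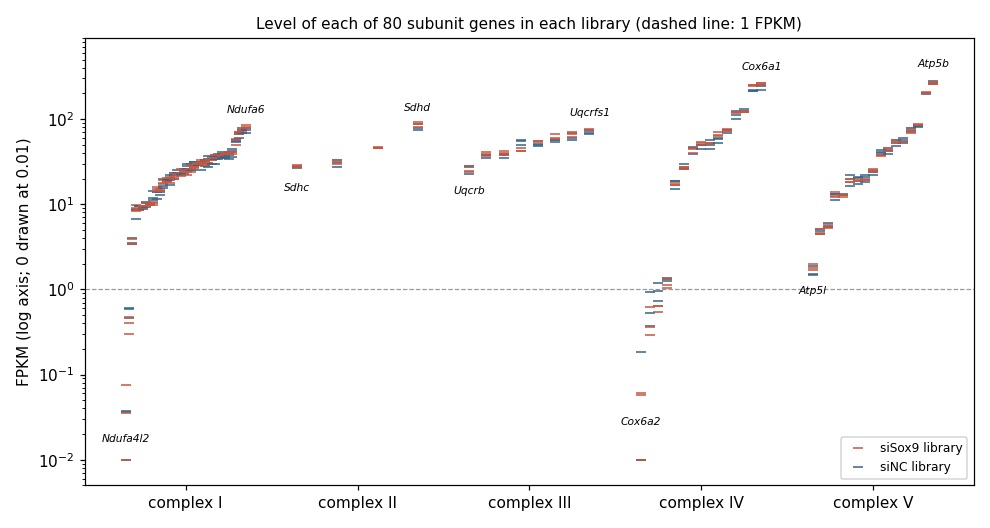
FPKM (vertical axis, logarithmic; a value of 0 is drawn at 0.01) of each of the 80 genes in the 3 siSox9 (red) and 3 siNC (blue) libraries, sorted by mean within each complex, with the lowest and highest gene of each complex named and 1 FPKM as a dashed line. Red and blue marks lie on top of each other for most genes, and the 5 genes with means below 1 FPKM are Ndufb2, Ndufa4l2 and the tissue forms Cox4i2, Cox6a2 and Cox7a1.

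Genes that work with these subunits were compared in the same fit. Among 7 subunits or close partners that the symbols did not take in, Cyc1, the cytochrome c1 subunit of complex III, was at 68.5, 72.8 and 70.9 FPKM with siSox9 and 86.3, 90.0 and 92.8 FPKM with siNC. The groups were far apart, and Cyc1 fell by 0.34 on the log2 scale (SE 0.038, adjusted p = 0.000931, limma), a larger fall than that of any of the 75 subunits tested. Higd2a, a complex IV assembly and supercomplex factor, rose (log2 fold change 0.27, adjusted p = 0.00410), and the other 5 did not pass.

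The mitochondrially encoded subunits, which join the nuclear ones in complexes I, III, IV and V, are measured in the same libraries. Of 12 tested, 7 were higher and none lower in limma, and the median log2 fold change was 0.221. An unadjusted p under 0.05 in limma was seen in 9 of the 12, against 5051 of all 12009 genes tested. The 7 had group means of 629 FPKM or more and standard errors of 0.043 to 0.058. The other 5 (mt-Atp6, mt-Co2, mt-Co3, mt-Nd3 and mt-Nd4l) had group means of 1.94 to 52.1 FPKM and standard errors of 0.128 to 0.353. Why these 5 stood so far below the 7 was not tested, so their values may not give the level of their RNA. The largest of the 7 was mt-Nd2, at 1973, 2052 and 2173 FPKM with siSox9 and 1668, 1675 and 1698 FPKM with siNC (log2 fold change 0.30, adjusted p = 0.00258), and mt-Co1, the catalytic subunit of complex IV, was at 10557 ± 566 and 9282 ± 351 FPKM (SD, n = 3 each, adjusted p = 0.0414). All are read from shared long transcripts of mitochondrial DNA and are not independent of each other. The number past the threshold was 5 without siNC replicate 1, 4 after quantile normalization, 1 without the filter on low values and as low as 3 when siSox9 replicate 2 was left out, and none was lower in any setting.

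Assembly factors gave 4 higher and 2 lower of 45 tested, and the largest changes among these 6 were those of the complex IV factor Surf1 (log2 fold change 0.33, adjusted p = 0.00944), the complex I factor Tmem186 (0.26, adjusted p = 0.00953) and the ATP synthase factor Atpaf1 (-0.23, adjusted p = 0.0442). No assembly factor was lower in limma without the filter on low values, with TPM, median centring, quantile normalization or the length and GC correction, or without siSox9 replicate 2, siSox9 replicate 3 or siNC replicate 2, while 7 were higher with median centring and with quantile normalization and 9 with the length and GC correction. Of 17 electron carriers and genes of coenzyme Q synthesis, Coq3 (0.30, adjusted p = 0.0107) and Pdss2 (0.24, adjusted p = 0.0396) were higher and cytochrome c, Cycs, was lower (-0.14, adjusted p = 0.0364), and the number past the threshold went down to 1 without the filter, with TPM and without siSox9 replicate 1, siSox9 replicate 2 or siNC replicate 3. The tricarboxylic acid cycle, which supplies NADH and succinate, had 3 lower and none higher in limma of 19 tested, namely Idh2 (-0.36, adjusted p = 0.00299), Dlst (-0.34, adjusted p = 0.000510) and Cs (-0.13, adjusted p = 0.0120). Of the 19, 5 had an unadjusted p under 0.05, against 5051 of all 12009 genes tested. After the correction for exon length and GC content, 5 of the 19 were higher. The median was 0.031, opposite in sign to those 3. Mitochondrial ribosomal proteins gave 11 higher and 4 lower of 77, with 4 higher and 3 lower without siSox9 replicate 2, 4 and 4 without siSox9 replicate 3, 6 and 4 without siNC replicate 2, 5 and 3 without the filter, 8 and 6 without siNC replicate 1, 8 and 2 without siNC replicate 3, and 18 and 4 with the length and GC correction.

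Regulators of mitochondrial biogenesis gave 1 higher (Perm1, log2 fold change 0.20, adjusted p = 0.0358) and 1 lower (Yy1, -0.18, adjusted p = 0.0486) of 17 tested. Neither direction had a regulator past the threshold in limma without the filter, with TPM, or without siSox9 replicate 1, siSox9 replicate 2, siNC replicate 2 or siNC replicate 3. Nrf1, the factor best known for binding the promoters of respiratory genes, stood at 3.35 ± 0.245 and 3.52 ± 0.246 FPKM (siSox9 and siNC, SD, n = 3 each, adjusted p = 0.546). The shares that passed in these lists, from 11.8% for the regulators to 19.5% for the ribosomal proteins, 28.6% for the 7 close partners and 58.3% for the mitochondrially encoded genes, can be read against the 30.4% of all genes.

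Promoters were examined because the subunits share known regulators. RefSeq promoters (GRCm38.p6, 250 bases before to 50 after the start) were found for 64 of the 80 genes, and both strands were searched for the NRF1 core GCGCNTGCG, the GABP motif CCGGAAGT and the YY1 motif AAGATGGC, which do not overlap in their letters. The NRF1 core occurred for 23 of the 64 subunits (35.9%), against 7.12% of all 27025 genes with a promoter used and 16.2% of those tested. YY1 occurred in 14.1% (3.19% of all, 5.65% of tested) and GABP in 7.81% (4.31% of all, 864 of the 8643 tested). At least 1 of the 3 was found for 34 subunits (53.1%), against 13.3% of all and 28.5% of tested. Of the 6 called subunits only Atp5g2, Cox8a, Ndufv2 and Uqcrc1 had a promoter in the table, and in their windows the NRF1 core was found for Atp5g2 and Uqcrc1, the GABP motif for Cox8a, and none of the 3 motifs for Ndufv2. The letters are a description of these windows and not sites of binding.

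To show the shared letters, 60 bases around the core are given below for the most abundant gene of a complex whose window lay before the start and outside annotated exons; no gene of complexes II and III had such a window. Capitals mark the NRF1 core, which reads here on the opposite strand, and each sequence runs 5′ to 3′ on the strand of the gene. The windows lie at chr4:123718249-123718308 (Ndufs5, complex I, - strand), chr5:115349040-115349099 (Cox6a1, complex IV, - strand) and chr11:115420025-115420084 (Atp5h, complex V, - strand) in GRCm38.p6, and the core begins 97, 116 and 140 bases before the start.
Ndufs5: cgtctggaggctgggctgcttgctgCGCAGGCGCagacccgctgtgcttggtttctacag
Cox6a1: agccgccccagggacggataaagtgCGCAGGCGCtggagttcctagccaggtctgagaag
Atp5h: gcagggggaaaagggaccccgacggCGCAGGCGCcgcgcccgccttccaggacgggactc
The 3 cores are the same run of letters, and none of the 3 genes passed the threshold between siSox9 and siNC (log2 fold changes -0.02, 0.14 and 0.01).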

How the data were processed

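RNA-Seq of 6 libraries, 3 siSox9 and 3 siNC, was analysed. The authors deposited 1 table of FPKM values per gene and library. The submitters' processing notes name mm9, HISAT2 2.1.0, Bowtie2 2.2.3 and TopHat2, without roles, whereas the positions in the table equal those of GENCODE M21 on GRCm38 for 93.3% of its genes; other steps are not given in the sources used here. Whole reads were recovered from FPKM and GENCODE M21 exon lengths, and 91.0% to 91.1% of values were whole within 0.02 reads; 65 of the 80 subunits have read numbers. The symbols match 81 genes; 1 of them is not reported here and enters no count of subunits.

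Groups were compared with limma 3.58.1 in R 4.3.3 (lmFit, eBayes with trend, two-sided) on log2(FPKM + 1), over the 12009 genes whose mean reached 1 FPKM, without a block, with Benjamini-Hochberg adjustment over all of them and a threshold of 0.05. Fold changes on this scale understate those of low genes. Isoform shares were compared with exact permutation tests. Intervals and floors cover counting error or the spread of these libraries only. On simulated data, limma called 89 of 100 genes changed by 1.5-fold, 92 of 96 changed by 2-fold and 7 of 10262 unchanged genes. The simulated reads had the same small spread for every gene and no library that stood apart, unlike siNC replicate 1. Changes under 1.5-fold, such as those of the subunits called here, were not simulated, so these counts do not give the call rates for them.

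Genes named were, per complex, up to 6 of each direction past the threshold with groups that do not overlap, the nuclear core subunits of complexes I to III, the isoform pairs, Atp5a1, Atp5b, Atp5c1 and Sox9, and up to 3 genes of each other list where a result turned on them. Members and lists were chosen with earlier results of these data known. Alternatives were a pseudocount of 0.1, no filter, a minimum of 5 FPKM, quantile normalization, median centring, TPM, limma voom with TMM factors on recovered reads, a correction for exon length and GC content, a replicate block and leaving out each library. Other steps ran in Python 3.11.15 with scipy 1.17.1, pandas 2.3.3 and matplotlib 3.10.9.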

Additional observations from a re-analysis of the deposited data

How the results depend on the processing

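The counts and medians of the subunits, the genes named by rule and the counts of the other gene lists were recomputed under 15 alternatives. The isoform shares, the deviation of siNC replicate 1, the counts of groups that do not overlap and the promoter motifs were not. Cox8a and Uqcrq passed in each alternative that tested them. With voom, 60 of the 75 subunits were tested, and Cox8a and Ndufv2 could not be, since their reads were not whole. The 27 named subunits tested and Sox9 gave 415 values, of which 377 kept their direction and side of the threshold or passed in neither fit, 14 passed only in the alternative, 24 lost the call and 0 reversed a call; of 298 values past the threshold in neither fit, 35 had the other sign. Uqcrc2, Uqcrfs1 and Cox6a1 passed in several alternatives.

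The number of subunits higher was 7 with TPM, 6 with median centring, 5 with the replicate block, 5 with voom on recovered reads and 9 after the length and GC correction, against 3; the number lower was 1 without the filter on low values, 1 with median centring and 5 with the replicate block, against 3. The split between higher and lower calls thus moved from 3 and 3 to 7 and 2 (TPM), 6 and 1 (median centring), 5 and 2 (voom) and 9 and 3 (length and GC correction). The median of all genes moved by under 0.1 on the log2 scale in each alternative. It was -0.014 in the main fit, 0.012 with TPM and median centring and 0.014 after the length and GC correction. The median of the subunits was 0.012, then 0.041 with TPM, 0.038 with median centring and 0.036 after that correction. Over all genes, the calls went from 1532 higher and 2118 lower to 1217 and 1332 with TPM. They were 1959 and 1765 with median centring, and 2307 and 1903 after the correction. The TPM sum includes Gm23935, a row of 57 bases listed at 748 to 19473 FPKM. In complex I, where none was higher in limma, 1 was higher with TPM, median centring and the length and GC correction. There, 0 were lower without the filter, with median centring and with voom on recovered reads, which could not test Ndufv2. The number lower was 2 with a minimum of 5 FPKM, quantile normalization and the length and GC correction, and 3 with the replicate block. In complex III, 3 were higher with TPM, voom and the length and GC correction, and 2 with median centring and the replicate block. In complex IV, 1 was higher without the filter. In complex V, 1 was higher with the replicate block and 2 after the length and GC correction, and 0 were lower without the filter, with TPM, with median centring and after the length and GC correction. Apart from fewer genes or subunits tested under a filter or voom, the cause was not tested.

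Leaving out each library in turn gave 1 to 4 subunits higher and 1 to 8 lower. The ranges were 0 to 1 higher and 0 to 4 lower in complex I, 0 to 2 higher in complex III, 1 to 2 higher and 0 to 1 lower in complex IV, and 0 to 2 lower in complex V. The 8 lower came without siNC replicate 1. Leaving out any siSox9 library gave 1 higher and 944 to 1204 of all genes, against 3 and 1532.

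Samples with the same replicate number did not deviate together (correlations of 0.0649, -0.0504 and 0.00784), so the numbers are taken as names only. The replicate block kept all 6 calls. Depth limits Cox4i2, Cox6a2, Cox7a1 and Ndufa4l2, which had 0 to 23 reads per library.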
